A study of Mus musculus with 12 samples.

Results

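Rab GTPases are small switch proteins that mark the membranes of the cell and direct traffic between them. The genes described here are the rows of the deposited table whose symbol is Rab followed by a number and at most 2 further letters or digits, with the symbols of binding partners left out. The table listed 59 such genes among 24346, and 41 of them had at least 1 FPKM in at least 3 of the 12 libraries. FPKM corrects the number of fragments for the length of the transcript and the size of the library, so levels of different genes can be set beside each other. The other 18 genes stayed under this limit and were not tested. Rab42 was just inside it, with 3 libraries at 1 FPKM or more, and Rab6b was just outside, with 2 libraries and a highest value of 1.42 FPKM. A further 3 symbols have the same letter pattern but are no GTPase genes, namely the exchange factor Rab3ip and the antisense RNAs Rab10os and Rab26os, and were left out.

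The cells were wild-type mouse bone-marrow-derived macrophages, grown for 7 days in RPMI medium with 10% serum and the growth factor M-CSF, and the title of the study asks how endoplasmic reticulum (ER) stress alters inflammation. Each of the 4 groups held 3 RNA sequencing libraries. In the group Tm plus LPS, the cells met 5 ug/ml tunicamycin (Tm), which blocks N-linked glycosylation and so stresses the ER, 3 h ahead of lipopolysaccharide (LPS). LPS, the bacterial ligand of TLR4, was used at 1 ng/ml over 3 h. The other groups had Tm alone, LPS alone and neither agent (control). How long Tm alone was applied, whether Tm stayed during LPS, the mouse strain and age, and whether replicates came from separate mice or cultures are not stated in the labels used here. All p-values therefore measure only the spread between these samples.

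A Rab protein cycles between a GTP-bound form on membranes, where it recruits effectors such as tethers and motors, and a GDP-bound form that a GDP dissociation inhibitor keeps in the cytosol. Guanine nucleotide exchange factors switch it on and GTPase-activating proteins switch it off. In macrophages these proteins direct the uptake and maturation of phagosomes, the release of cytokines, and the path of TLR4 between the Golgi, the cell surface and lysosomes.

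Summed FPKM per library was 561108 to 685010, and read depth is unknown. Pearson's r across genes was 0.973 to 0.986 between libraries of 1 group and 0.889 to 0.951 between groups. The chaperone gene Hspa5, a target of the ER stress response, averaged 13531 ± 1726 FPKM with Tm plus LPS, 9594 ± 2056 with Tm, 1198 ± 76.4 with LPS and 841 ± 73.2 in control, while the cytokine gene Tnf averaged 1048 ± 113, 6.10 ± 0.537, 743 ± 62.4 and 2.94 ± 1.02 FPKM in the same groups. The 9 macrophage markers in the table summed to 14508 to 24206 FPKM over the libraries. The 6 neutrophil markers summed to 15.9 to 30.4 FPKM with Tm plus LPS, 12.3 to 23.8 with Tm, 184 to 309 with LPS and 83.6 to 122 in control. The 7 stromal markers summed to 16.7 to 45.4, 20.1 to 38.5, 8.81 to 15.4 and 7.97 to 10.3 FPKM in that order, and the 5 dendritic cell markers to 2.18 to 5.27, 0.501 to 1.14, 3.81 to 8.78 and 0.179 to 0.594 FPKM. With Tm against control, where 34.5% of all genes were called in the test described below, 4 of the 5 tested stromal markers were called higher, 3 of the 4 tested neutrophil markers lower, and of the 9 macrophage markers 1 higher and 3 lower. With Tm plus LPS against LPS (28.9% of all genes called) 2 stromal markers were called higher, 3 neutrophil markers lower and 4 macrophage markers lower. With LPS against control (18.4%) 2 neutrophil markers and both tested dendritic cell markers were called higher, and of the macrophage markers 1 was higher and 1 lower. With Tm plus LPS against Tm (15.7%) 1 macrophage, 1 neutrophil and 1 dendritic cell marker were called higher. The 5 B and plasma cell markers summed to 0.296 to 1.13 FPKM with Tm plus LPS and 1.15 to 2.66 with Tm. They summed to 0.586 to 2.50 with LPS and 0.850 to 3.12 in control. Sums of the T and NK cell, mast cell and erythroid markers reached at most 0.536, 0.270 and 0.703 FPKM. Of these lists, Ms4a1 of B cells, Klrb1c of NK cells, and Cpa3 and Mcpt4 of mast cells were among those at 0 in all libraries. The part of such cells in the results below was not tested, and in these bulk samples fewer cells of a type and less RNA per cell cannot be told apart.

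The summed level of the 41 Rab genes was 2255 ± 55.1 FPKM with Tm plus LPS, 1998 ± 59.9 with Tm, 2316 ± 27.7 with LPS and 2092 ± 50.5 in control (SD, n = 3 each). As a share of all FPKM in the library this was 0.355%, 0.355%, 0.342% and 0.337% in the same order, and these shares were not tested. The order of the genes within the set differed between groups. Rab32 took 18.2% of the summed Rab level with Tm plus LPS, 13.5% with Tm, 12.9% with LPS and 7.68% in control, where it stood second to Rab7 and was first in the 3 treated groups. Rab7b stood at place 27 among the 41 genes with Tm plus LPS, 16 with Tm and 19 with LPS, against 5 in control. Rab20 held place 6 with Tm plus LPS, 13 with Tm and 9 with LPS, against 18 in control.

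Differences were tested with limma on log2(FPKM + 1) over all 10311 genes that met the same FPKM limit, and a gene was called at a Benjamini-Hochberg adjusted p under 0.05. Fold changes are ratios on this scale, which understates the change of a low gene. LPS alone against control called 11 Rab genes, 6 higher and 5 lower, in a comparison that called 18.4% of all genes (10.5% higher and 7.86% lower). Quantile normalization turned that split into 3 higher and 7 lower. Tm alone against control called 20, 10 in each direction, where 34.5% of all genes were called (17.9% higher and 16.6% lower). The counts of 11 and 20 both hold Rab19, Rab38 and Rab42, which met the FPKM limit mainly through groups where they were high. Their calls against control thus rest in part on how they were admitted, and these counts are to be read with that limit.

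Tm plus LPS against LPS alone called 15 Rab genes, 6 higher and 9 lower, against 28.9% of all genes (13.8% higher and 15.1% lower). Tm plus LPS against Tm alone called 9, 4 higher and 5 lower, against 15.7% of all genes (8.69% higher and 7% lower). The interaction, the difference between the LPS effects in cells with and without Tm, called 1 Rab gene, against 3.37% of all genes (1.41% higher and 1.96% lower). The median log2 fold change of the 41 genes was 0.11 for LPS, -0.03 for Tm, -0.01 for Tm plus LPS against LPS and 0.08 for Tm plus LPS against Tm. Over all tested genes it was 0.00, 0.03, 0.00 and -0.01 in the same order. Over the pairwise comparisons 25 Rab genes were called at least once, 16 never, and Rab7b, Rab32 and Rab38 in all 4. Rab38 met the FPKM limit through the treated libraries. The matching shares of all genes are not given here, so these counts do not set the Rab genes apart.

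**Figure D1:**
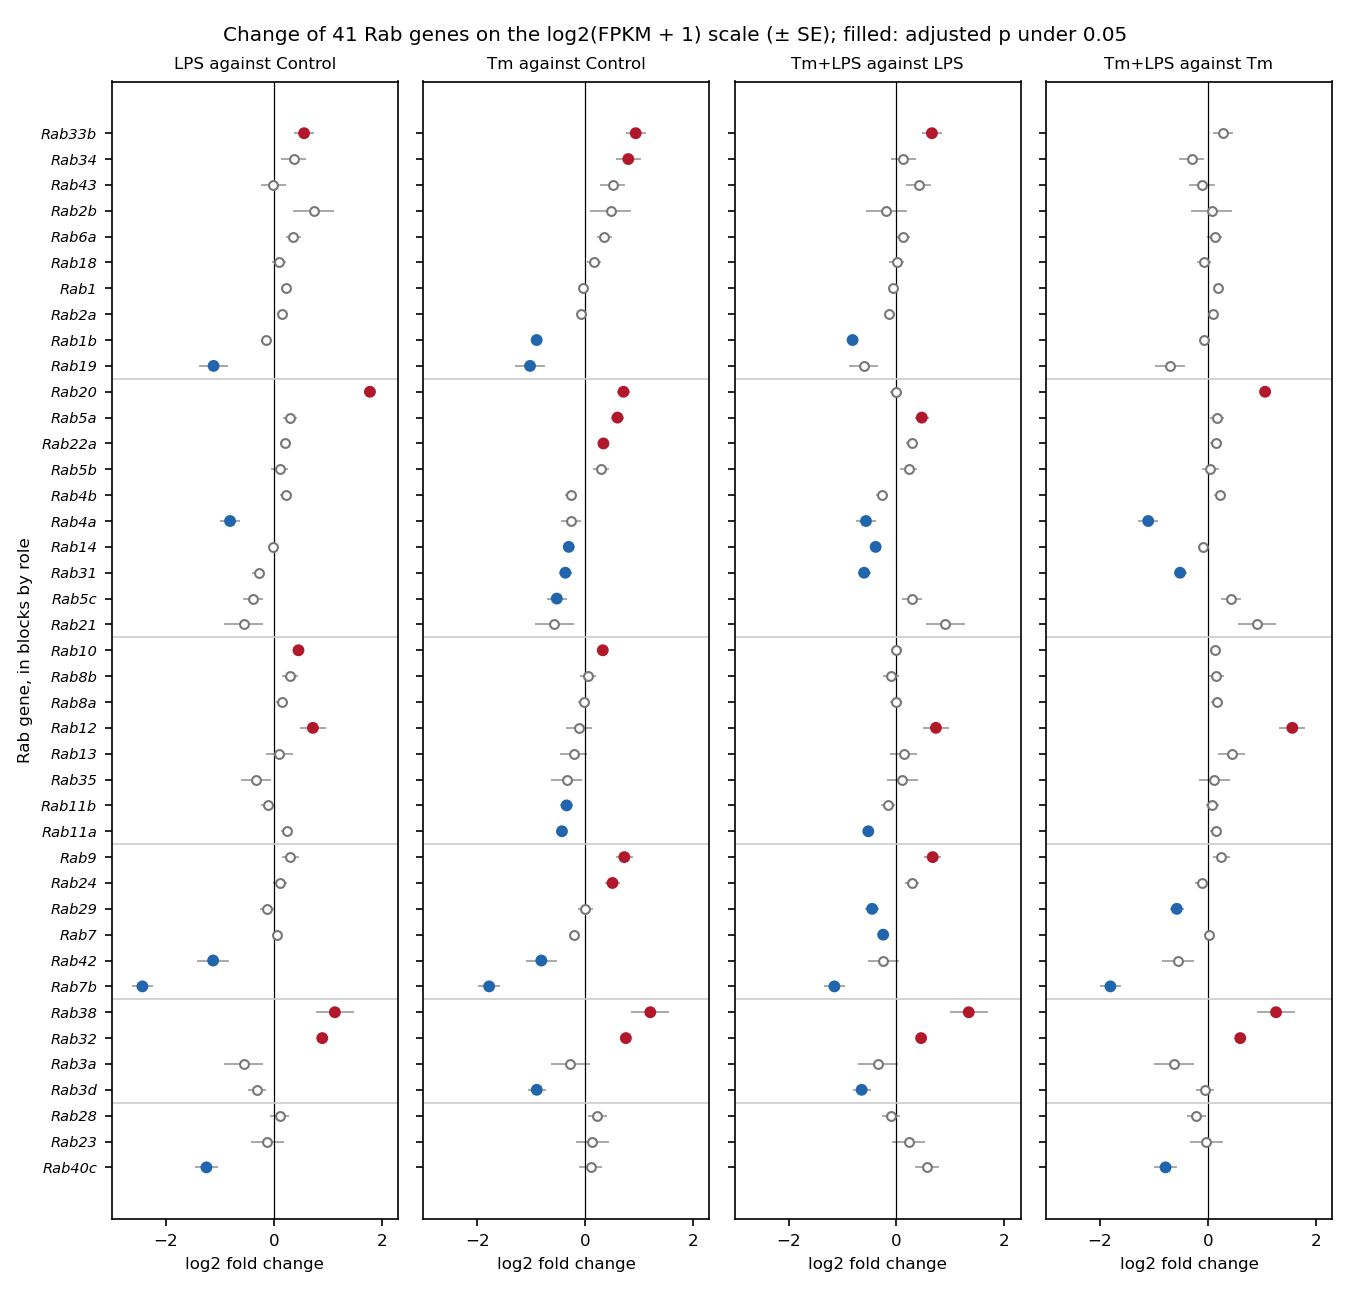
Log2 fold change on the log2(FPKM + 1) scale (x axis, ± SE) of the 41 tested Rab genes (y axis, in blocks by role) in the 4 pairwise comparisons. Filled points passed an adjusted p of 0.05, red higher and blue lower; Rab7b is filled and lies left of 0 in all 4 panels, and Rab32 and Rab38 are filled and lie right of 0 in all 4.

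The promoters of 4 genes on which the results turn are given here, because Rab20 and Rab32 rose with each agent alone, and Rab5a and Rab1b moved with Tm while their close paralogues Rab5b and Rab1 were not called. Each is the 250 bases before the RefSeq transcript start (build GRCm38.p6, the same as mm10), read 5′ to 3′ on the strand of the gene, with capitals for a motif match.
Rab20, chr8:11478641-11478890, minus strand: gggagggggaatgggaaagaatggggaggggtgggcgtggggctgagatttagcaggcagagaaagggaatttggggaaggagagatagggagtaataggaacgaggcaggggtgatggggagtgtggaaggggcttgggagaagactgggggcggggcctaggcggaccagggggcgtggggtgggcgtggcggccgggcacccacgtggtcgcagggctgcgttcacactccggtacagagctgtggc
Rab32, chr10:10558208-10558457, minus strand: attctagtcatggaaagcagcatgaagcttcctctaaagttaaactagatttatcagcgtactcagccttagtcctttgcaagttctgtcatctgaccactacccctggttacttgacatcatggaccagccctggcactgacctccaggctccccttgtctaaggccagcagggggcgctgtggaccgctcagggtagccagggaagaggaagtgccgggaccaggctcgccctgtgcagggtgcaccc
Rab5a, chr17:53478984-53479233, plus strand: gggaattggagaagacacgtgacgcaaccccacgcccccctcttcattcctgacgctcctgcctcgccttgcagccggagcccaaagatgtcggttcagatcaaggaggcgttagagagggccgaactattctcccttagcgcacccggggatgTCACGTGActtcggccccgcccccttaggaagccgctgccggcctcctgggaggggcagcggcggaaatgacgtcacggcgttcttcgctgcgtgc
Rab1b, chr19:5106997-5107246, minus strand: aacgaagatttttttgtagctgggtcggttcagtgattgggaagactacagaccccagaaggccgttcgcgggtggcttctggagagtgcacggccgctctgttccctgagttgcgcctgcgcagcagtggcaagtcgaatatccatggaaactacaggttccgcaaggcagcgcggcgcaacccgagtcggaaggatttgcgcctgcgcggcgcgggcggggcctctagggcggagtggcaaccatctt
The capitals in Rab5a mark TCACGTGA, the CLEAR motif that TFEB binds at lysosomal genes, 96 bases before the start.

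Promoters of 36 of the 41 genes were in the RefSeq table, in 44 windows, and 6 motifs were searched on both strands in them and in all 32851 windows of the table. Motifs were searched one by one, so a stretch could count for more than 1. The ER stress element CCAAT followed after any 9 bases by CCACG was in 0.113% of all windows and in 0 of the 36 Rab genes, and the UPR element TGACGTGG was in 0.563% and in 0. The ATF4 and CHOP element TGATGNAA was in 3.45% of windows and in 1 Rab gene, Rab21. The NF-kB motif was in 7.25% of windows and in 2 Rab genes, Rab11a and Rab28, and the interferon element GAAA followed after any 2 bases by GAAA in 2.98% and in 1, Rab19. CLEAR was in 0.785% of windows and in 2 Rab genes, Rab5a and Rab21. A match is a description of letters and not a shown binding site.

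Among the Rab proteins of late endosomes, lysosomes and autophagy, Rab7b fell in all 4 pairwise comparisons. Rab7b acts between late endosomes and the trans-Golgi and is known in macrophages to promote the lysosomal breakdown of TLR4. The gene (chromosome 1, 131688695 to 131715439, plus strand, mm10) had 8.76, 8.96 and 17.0 FPKM with Tm plus LPS and 41.7, 45.4 and 36.7 with Tm alone. With LPS alone it had 26.5, 30.6 and 21.0 FPKM, and in control 133, 157 and 141. Every treated library lay below every control library, and the 3 libraries with both agents lay below all others. The fall was 5.40-fold with LPS (log2 -2.43 ± 0.20, SE, adjusted p = 7.79e-08) and 3.43-fold with Tm (log2 -1.78 ± 0.20, adjusted p = 3.9e-06). Each agent also lowered it in the presence of the other, by 2.22-fold for Tm plus LPS against LPS (adjusted p = 0.000387) and 3.49-fold for Tm plus LPS against Tm (adjusted p = 4.78e-06).

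Its paralogue Rab7, which drives fusion of late endosomes with lysosomes, was the most abundant member in control. It had 249, 223 and 232 FPKM with Tm plus LPS, 218, 230.0 and 249 with Tm, 281, 278 and 276 with LPS and 275, 264 and 264 in control. The log2 difference for LPS was 0.05 (95% interval -0.12 to 0.22) and for Tm -0.21 (-0.38 to -0.04, adjusted p = 0.056), and neither was called. Rab7 fell by 0.25 on the log2 scale with Tm plus LPS against LPS (adjusted p = 0.0296), a call that ended without any 1 of LPS replicates 1, 2 and 3 or Tm plus LPS replicates 2 and 3 (adjusted p 0.0534 to 0.0831), with only the libraries of the contrast or with limma without trend (0.0832 and 0.112), and whose sign turned under quantile normalization. Annotation lists a processed pseudogene of Rab7, Rab7-ps1, that may share its reads. The ratio of Rab7b to Rab7 was 0.0496 ± 0.0208 with Tm plus LPS, 0.179 ± 0.0271 with Tm, 0.0935 ± 0.0168 with LPS and 0.537 ± 0.0542 in control (SD, n = 3 each).

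Rab9, which returns mannose-6-phosphate receptors from late endosomes to the trans-Golgi, rose with Tm. Its levels were 35.4, 26.1 and 37.4 FPKM with Tm plus LPS, 32.9, 24.1 and 25.3 with Tm, 20.3, 22.9 and 17.4 with LPS and 15.98, 15.7 and 16.4 in control. All 6 libraries with Tm lay above all 6 without it. The rise was 1.65-fold against control (log2 0.73 ± 0.16, adjusted p = 0.00228) and 1.59-fold for Tm plus LPS against LPS (log2 0.67 ± 0.16, adjusted p = 0.00516). Rab24, linked to autophagy, averaged 28.2 ± 2.26 FPKM with Tm and 19.5 ± 1.10 in control (log2 0.51 ± 0.13, adjusted p = 0.00638). Up to 830 exon bases of Rab24 overlap Prelid1 on the other strand, and Prelid1 went the other way, with 271 ± 21.7 FPKM with Tm and 418 ± 12.2 in control (log2 -0.63 ± 0.09, adjusted p = 8.02e-05). How the counting used strand is not stated in the sources used here, so reads in that overlap cannot be told apart.

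Rab29, a trans-Golgi and lysosomal Rab that recruits the kinase LRRK2, was lower with both agents than with either alone. It had 12.5, 11.4 and 11.8 FPKM with Tm plus LPS, 20.1, 17.1 and 17.6 with Tm, 17.9, 15.2 and 16.8 with LPS and 18.8, 17.6 and 17.9 in control. The libraries with both agents were the 3 lowest. The log2 difference was -0.58 ± 0.13 against Tm (adjusted p = 0.00725) and -0.45 ± 0.13 against LPS (adjusted p = 0.0188), and the second call ended without LPS replicate 1 (adjusted p = 0.0724) and with only the libraries of the contrast (0.0621). The interaction was not called, at -0.46 ± 0.19 (adjusted p = 0.255). Against control it was 0.01 with Tm (95% interval -0.28 to 0.29) and -0.12 with LPS (-0.40 to 0.17).

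Rab42 passed the FPKM limit only through the control and Tm libraries, so its fall against control rests on how it was admitted. It was listed at 0 in all 3 libraries with Tm plus LPS, and had 0.0886, 0.384 and 1.10 FPKM with Tm, 0.375, 0.202 and 0 with LPS and 2.00, 0.752 and 2.25 in control. Tm and control overlapped. It was called lower with LPS (log2 -1.12 ± 0.29, adjusted p = 0.0114) and with Tm (log2 -0.81 ± 0.29, adjusted p = 0.0407). The LPS call ended without LPS replicate 3 (adjusted p = 0.0541) and the Tm call without LPS replicate 2, Tm replicate 1 or Tm replicate 2 (adjusted p 0.0501 to 0.176). With a pseudocount of 0.1 the log2 values were -2.73 and -1.75, and the Tm call was lost (adjusted p = 0.138), as it was with no filter or with only the libraries of the contrast (0.0530 and 0.0721). Rab42 was tested in 16 of the 20 alternative runs, as it fell under the FPKM limit in the others.

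**Figure D2:**
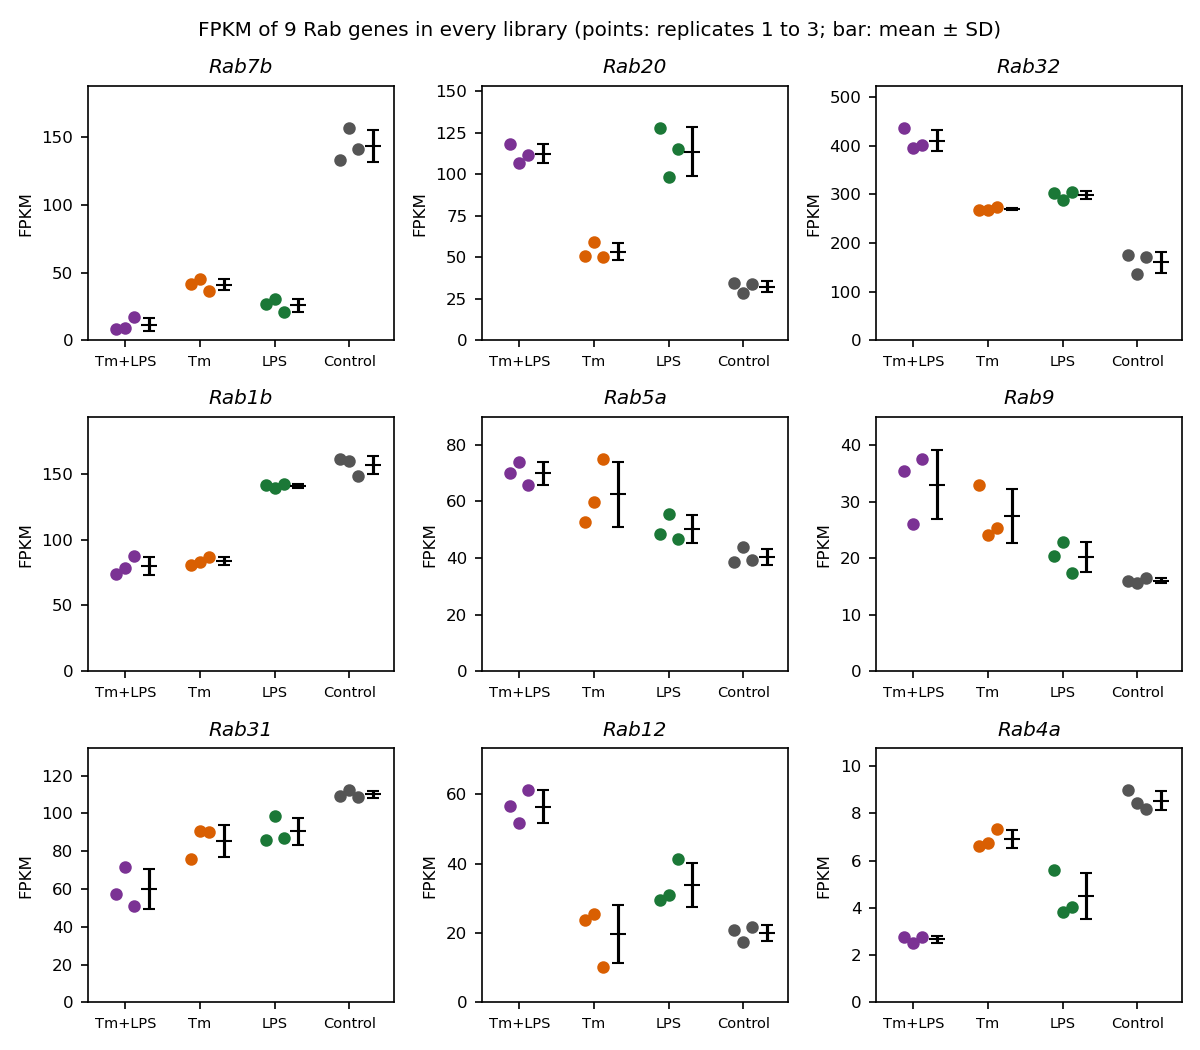
FPKM (y axes from 0) of 9 Rab genes in each library, by group (x axes), with replicates 1 to 3 as points and the mean ± SD as a bar. Rab7b is highest in control, Rab32 and Rab12 are highest with Tm plus LPS, Rab1b is lower in the 6 libraries with Tm than in the 6 without, and Rab4a is lowest with Tm plus LPS.

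Lysosome-related organelles are secretory relatives of lysosomes such as melanosomes, and among their Rab genes Rab32 rose in all 4 pairwise comparisons. Rab32 also coats the vacuoles of some intracellular bacteria in macrophages. The gene (chromosome 10, 10545002 to 10558265, minus strand) had 435, 394 and 401 FPKM with Tm plus LPS and 268, 269 and 273 with Tm. It reached 302, 288 and 305 FPKM with LPS and 175, 136 and 171 in control. The 4 groups did not overlap, and the order was both agents, LPS, Tm and control. The rise was 1.87-fold with LPS (log2 0.90 ± 0.09, adjusted p = 1.86e-06) and 1.69-fold with Tm (log2 0.76 ± 0.09, adjusted p = 1.38e-05). With the other agent present it was 1.37-fold against LPS (adjusted p = 0.00181) and 1.52-fold against Tm (adjusted p = 0.000263). The interaction was -0.30 ± 0.13 (adjusted p = 0.307).

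Rab38 passed the FPKM limit through the treated libraries, so a rise against control is part of how it was admitted. It had 6.89, 3.62 and 4.04 FPKM with Tm plus LPS, 0.859, 1.79 and 1.56 with Tm, 1.60, 0.157 and 2.78 with LPS and 0.0775, 0 and 0 in control. Each library with both agents lay above every other library, and 2 of the 3 control libraries were listed at 0, so no fold against control is given. On the log2(FPKM + 1) scale the difference was 1.13 ± 0.35 for LPS (adjusted p = 0.033) and 1.21 ± 0.35 for Tm (adjusted p = 0.0139). It was 1.34 ± 0.35 for Tm plus LPS against LPS (adjusted p = 0.00922) and 1.26 ± 0.35 against Tm (adjusted p = 0.0216). A pseudocount of 0.1 moved the first 3 of these to 3.16, 3.58 and 2.14, and ended the call against Tm (adjusted p = 0.136), as no filter did (0.0697). The LPS call ended with no filter, under quantile normalization and with only the libraries of the contrast (adjusted p 0.0524 to 0.0941), and without any 1 of the control replicates or LPS replicates 1 and 3 (adjusted p 0.0681 to 0.182). The Tm call ended without Tm replicate 2 (0.0577), the call against LPS without LPS replicate 2 (0.0515), and the call against Tm without Tm replicate 1 or Tm plus LPS replicate 1 (0.0887 to 0.0896).

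Rab3d, found on secretory granules, fell with Tm. It had 7.96, 10.2 and 8.37 FPKM with Tm plus LPS, 7.84, 10.5 and 9.49 with Tm, 13.3, 13.6 and 16.3 with LPS and 15.9, 19.8 and 18.5 in control. The 6 libraries with Tm lay below the 6 without. The log2 difference was -0.90 ± 0.17 against control (adjusted p = 0.000544) and -0.65 ± 0.17 for Tm plus LPS against LPS (adjusted p = 0.00801). Rab3a, a Rab of synaptic vesicles, averaged 0.634 ± 0.362 FPKM with Tm plus LPS, 1.61 ± 1.04 with Tm, 1.10 ± 0.652 with LPS and 2.26 ± 1.40 in control and was called in no comparison. The melanosome and granule Rabs Rab27a and Rab27b were among the 18 genes under the FPKM limit.

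In the early endosome and uptake group, Rab20 rose with LPS and, to a smaller extent, with Tm. Rab20 is found on endosomes and phagosomes of macrophages. The gene (chromosome 8, 11453518 to 11478710, minus strand) had 118, 107 and 112 FPKM with Tm plus LPS and 50.9, 59.3 and 49.95 with Tm. Its values were 127, 98.3 and 115 FPKM with LPS and 34.4, 28.3 and 33.9 in control. The 6 libraries with LPS lay above the 6 without, and the Tm libraries above the control ones. The rise was 3.44-fold for LPS (log2 1.78 ± 0.12, adjusted p = 5.64e-09) and 1.64-fold for Tm (log2 0.71 ± 0.12, adjusted p = 0.000213). Tm plus LPS was 2.09-fold above Tm (adjusted p = 5.9e-06) and differed from LPS by -0.01 on the log2 scale (95% interval -0.26 to 0.24).

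Rab20 was the only member called for the interaction, at -0.72 ± 0.17 on the log2 scale (adjusted p = 0.0234). The LPS effect was thus smaller with Tm than without it. That call ended without control replicate 2, LPS replicate 1, LPS replicate 3, Tm replicate 2 or Tm plus LPS replicate 3 (adjusted p 0.0503 to 0.0765), and with no filter or limma without trend (0.0512 and 0.0786). Leaving out Tm replicate 1 gave 3 called members in place of 1. Up to 356 exon bases of Rab20 overlap the noncoding gene E230013L22Rik on the other strand, which had 7.73 ± 0.623 FPKM with Tm plus LPS, 3.77 ± 0.173 with Tm, 9.25 ± 1.95 with LPS and 2.40 ± 0.150 in control. It rose with LPS too (log2 1.58 ± 0.19, adjusted p = 1.11e-05), and reads of the overlap cannot be told apart.

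Rab5 proteins drive the fusion of early endosomes, and only 1 of the 3 Rab5 genes was called higher with Tm. Rab5a (chromosome 17, 53479234 to 53507680, plus strand) had 69.9, 74.1 and 65.7 FPKM with Tm plus LPS, 52.6, 59.9 and 74.9 with Tm, 48.5, 55.7 and 46.6 with LPS and 38.6, 43.8 and 39.2 in control. Tm and control did not overlap, and neither did Tm plus LPS and LPS. Up to 221 exon bases of Rab5a overlap Pp2d1 on the other strand, and a processed pseudogene, Rab5a-ps, may share its reads. The rise was 1.52-fold against control (log2 0.60 ± 0.13, adjusted p = 0.0016) and log2 0.47 ± 0.13 against LPS (adjusted p = 0.0109). Rab5c averaged 8.44 ± 2.38 FPKM with Tm and 12.3 ± 0.546 in control and was called lower (log2 -0.52 ± 0.19, adjusted p = 0.0404), a call that ended without any 1 control replicate or Tm replicates 2 and 3 (adjusted p 0.0645 to 0.202), and with the replicate number as a block, no filter or only the libraries of the contrast (0.0531 to 0.0663). Rab5b averaged 20.8 ± 1.76 FPKM with Tm plus LPS, 20.1 ± 0.651 with Tm, 17.9 ± 3.77 with LPS and 16.3 ± 2.08 in control and was called nowhere.

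Rab31 and Rab22a are close relatives on endosomes, Rab31 also at the trans-Golgi, and their levels moved apart. Rab31 had 57.2, 71.6 and 51.1 FPKM with Tm plus LPS, 75.7, 90.5 and 90.3 with Tm, 85.9, 98.9 and 87.2 with LPS and 109, 112 and 109 in control. The libraries with both agents were lowest and the control ones highest. Rab31 was called lower with Tm (log2 -0.37 ± 0.12, adjusted p = 0.0267) and with Tm plus LPS against LPS (log2 -0.60 ± 0.12, adjusted p = 0.0014) and against Tm (log2 -0.51 ± 0.12, adjusted p = 0.00744). The first of these ended without any 1 control replicate or Tm replicate 1 (adjusted p 0.0561 to 0.121), and with no filter, quantile normalization or limma without trend (0.0502 to 0.122). Rab22a averaged 59.2 ± 5.53, 53.1 ± 4.79, 48.5 ± 1.86 and 41.6 ± 1.41 FPKM with Tm plus LPS, Tm, LPS and in control. It was called higher with Tm (log2 0.34 ± 0.11, adjusted p = 0.0214), which ended without control replicate 2, control replicate 3 or Tm replicate 3 (adjusted p 0.0510 to 0.110). The ratio of Rab22a to Rab31 was 0.996 ± 0.0782 with Tm plus LPS, 0.623 ± 0.0672 with Tm, 0.536 ± 0.0217 with LPS and 0.378 ± 0.0150 in control. Rab22a shares up to 119 exon bases with the microRNA gene Mir6340 on the other strand, listed at up to 446 FPKM. Reads of that overlap cannot be told apart.

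Rab4a and Rab4b serve fast recycling from early endosomes to the surface. Rab4a had 2.78, 2.51 and 2.75 FPKM with Tm plus LPS, 6.64, 6.77 and 7.34 with Tm, 5.62, 3.82 and 4.05 with LPS and 8.98, 8.45 and 8.20 in control. The 4 groups did not overlap, and those with LPS were the lower ones. Rab4a fell with LPS (log2 -0.81 ± 0.19, adjusted p = 0.00501) and by 2.15-fold with Tm plus LPS against Tm (log2 -1.10 ± 0.19, adjusted p = 0.000497). Tm plus LPS against LPS was also called lower (log2 -0.57 ± 0.19, adjusted p = 0.0313), but not without LPS replicate 1 or any 1 of the Tm plus LPS replicates (adjusted p 0.0515 to 0.145), or with only the libraries of the contrast (0.0980). Rab4b was the more abundant, with 46.4 ± 3.48, 39.4 ± 2.55, 55.7 ± 3.96 and 47.2 ± 3.82 FPKM with Tm plus LPS, Tm, LPS and in control, and was called nowhere. The ratio of Rab4a to Rab4b was 0.0579 ± 0.00167 with Tm plus LPS, 0.176 ± 0.0177 with Tm, 0.0809 ± 0.0180 with LPS and 0.181 ± 0.00626 in control. Rab4b shares up to 460 exon bases with Gm21983 on the same strand, and reads of that overlap cannot be told apart.

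Rab14, which works between endosomes and the Golgi, had 103, 119 and 111 FPKM with Tm plus LPS, 116, 121 and 118 with Tm, 143, 146 and 147 with LPS and 144, 141 and 155 in control. The 6 libraries with Tm lay below the 6 without. It fell by 0.30 on the log2 scale with Tm against control (adjusted p = 0.0113) and by 0.39 with Tm plus LPS against LPS (adjusted p = 0.00292), and the first call ended without control replicate 3 (adjusted p = 0.0569) and under quantile normalization, where the log2 difference was -0.15 (adjusted p = 0.223). Rab21, an endosomal Rab tied to integrin traffic, varied widely between replicates, with 13.8, 8.08 and 15.0 FPKM with Tm plus LPS, 12.1, 4.61 and 3.37 with Tm, 5.36, 5.04 and 7.51 with LPS and 14.2, 8.40 and 6.32 in control. Its interaction was 1.47 ± 0.50 on the log2 scale (adjusted p = 0.141), and no comparison called it.

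**Figure D3:**
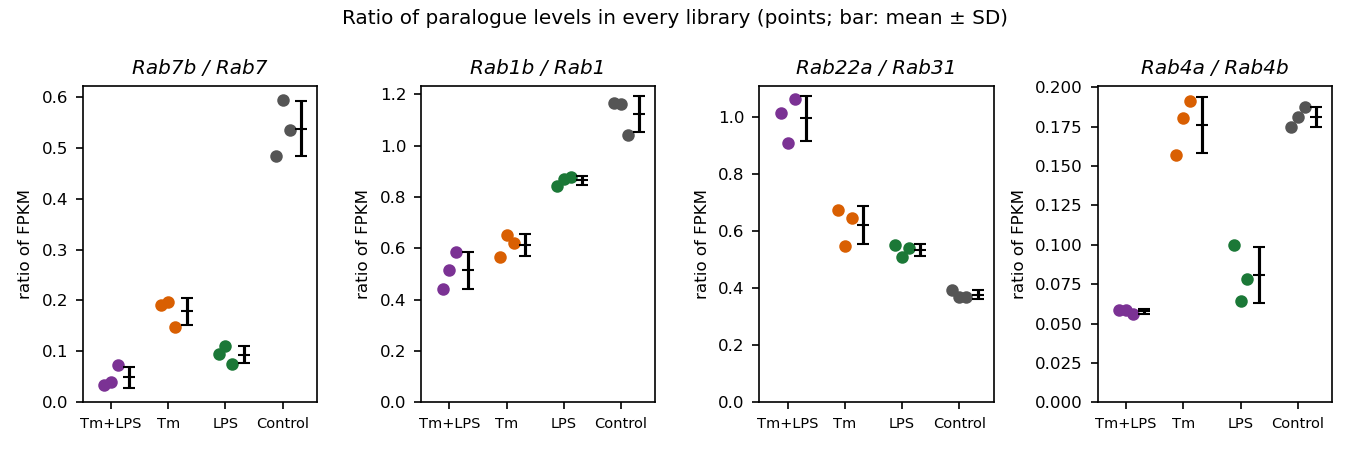
Ratio of FPKM of 4 pairs of paralogues in each library (points, y axes from 0), with the mean ± SD as a bar, by group (x axes). Rab7b to Rab7 and Rab1b to Rab1 are highest in control, Rab22a to Rab31 is highest with Tm plus LPS, and Rab4a to Rab4b is lower in the groups with LPS.

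Of the 10 tested Rab genes of the ER and Golgi, Tm against control called 2 higher and 2 lower, which is 40% of them against 34.5% of all genes, and LPS called 1 in each direction, 20% against 18.4%. Both shares were near those of all genes. They include Rab19, 1 of the 2 called lower with Tm and the 1 called lower with LPS. Rab19 met the FPKM limit mainly through the control libraries, so both shares are to be read with that limit. Rab1b, which with Rab1 (Rab1a in GENCODE) directs traffic out of the ER to the Golgi, fell with Tm. The gene (chromosome 19, 5099205 to 5107072, minus strand) had 73.8, 78.6 and 87.2 FPKM with Tm plus LPS and 80.5, 83.3 and 86.5 with Tm. It had 141, 139 and 142 FPKM with LPS and 161, 159.8 and 148 in control. The highest library with Tm was below the lowest without it. The fall was 1.86-fold against control (log2 -0.90 ± 0.09, adjusted p = 1.11e-06) and 1.76-fold for Tm plus LPS against LPS (log2 -0.81 ± 0.09, adjusted p = 4.53e-06). LPS against control gave -0.15 (95% interval -0.34 to 0.04).

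Rab1 had 168, 152 and 149 FPKM with Tm plus LPS, 142, 128 and 139 with Tm, 167, 159 and 162 with LPS and 138, 138 and 142 in control. It differed by -0.03 on the log2 scale with Tm (95% interval -0.21 to 0.15), so a fall as large as that of Rab1b was outside the interval. The ratio of Rab1b to Rab1 was 0.514 ± 0.0733 with Tm plus LPS, 0.613 ± 0.0426 with Tm, 0.865 ± 0.0177 with LPS and 1.12 ± 0.0712 in control. Rab2a, which acts at the Golgi and in lysosome delivery, differed by -0.08 with Tm (-0.27 to 0.11), and Rab18, a Rab of the ER and lipid droplets, by 0.17 (-0.11 to 0.45). Rab6a, which directs traffic within and out of the Golgi, averaged 46.4 ± 5.10 FPKM with Tm and 36.2 ± 6.64 in control and just missed the threshold (log2 0.36 ± 0.14, adjusted p = 0.0502). Up to 409 exon bases of Rab6a overlap Mrpl48 on the other strand. Mrpl48 fell with Tm (log2 -0.50 ± 0.16, adjusted p = 0.0234), and reads of the overlap cannot be told apart.

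Rab33b, a Golgi Rab that binds the autophagy protein Atg16l1, had 12.0, 11.3 and 11.2 FPKM with Tm plus LPS, 7.56, 11.1 and 9.44 with Tm, 7.00, 6.52 and 7.27 with LPS and 5.44, 3.86 and 3.93 in control. Up to 615 exon bases of Rab33b overlap Gm38160 on the other strand. Each treated group lay above control. The rise was 1.92-fold with Tm (log2 0.94 ± 0.18, adjusted p = 0.000886) and log2 0.66 ± 0.18 with Tm plus LPS against LPS (adjusted p = 0.0136). With LPS it was log2 0.56 ± 0.18 (adjusted p = 0.0433), a call that ended without control replicate 2 or 3, any 1 LPS replicate, Tm replicate 3 or Tm plus LPS replicate 1 (adjusted p 0.0513 to 0.132), and with the replicate number as a block or only the libraries of the contrast (0.0614 and 0.0884).

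Rab34, a Golgi Rab also linked to macropinocytosis, had 7.76, 5.72 and 11.9 FPKM with Tm plus LPS, 9.09, 10.5 and 11.2 with Tm, 7.18, 9.17 and 6.00 with LPS and 5.56, 6.50 and 4.45 in control. Tm lay above control and overlapped LPS. It was called higher with Tm (log2 0.80 ± 0.23, adjusted p = 0.0139), but not without control replicate 3 or Tm replicate 3 (adjusted p 0.0531 to 0.0604). Rab19 passed the FPKM limit through the control and 1 Tm library, so a fall is part of how it was admitted. It had 0, 0.194 and 0 FPKM with Tm plus LPS, 1.60, 0.458 and 0.349 with Tm, 0.983, 0.385 and 0.534 with LPS and 2.95, 2.24 and 2.34 in control. Every treated library lay below every control library, and the log2 difference was -1.11 ± 0.27 with LPS (adjusted p = 0.00722) and -1.02 ± 0.27 with Tm (adjusted p = 0.00764). With a pseudocount of 0.1 these were -1.90 and -1.78, and neither call held (adjusted p = 0.0622 and 0.0503).

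Among the Rab genes of recycling and delivery to the plasma membrane, Rab12 was highest with both agents. Rab12 carries cargo from recycling endosomes to lysosomes. It had 56.5, 51.7 and 61.1 FPKM with Tm plus LPS, 23.6, 25.5 and 10.2 with Tm, 29.5, 31.0 and 41.2 with LPS and 20.9, 17.5 and 21.6 in control. The libraries with both agents were the 3 highest, Tm and control overlapped, and Tm replicate 3 was the lowest of all. Tm plus LPS was 2.96-fold above Tm (log2 1.56 ± 0.24, adjusted p = 0.000222) and log2 0.73 ± 0.24 above LPS (adjusted p = 0.0329), and LPS was log2 0.73 ± 0.24 above control (adjusted p = 0.0475). The call against LPS ended without LPS replicate 1 or 2 or Tm plus LPS replicate 1 or 3 (adjusted p 0.0653 to 0.110), and with no filter or limma without trend (0.108 and 0.0705). The LPS call ended without any 1 control, LPS or Tm plus LPS replicate (adjusted p 0.0523 to 0.192), and with a pseudocount of 0.1, no filter, the replicate number as a block, limma without trend or quantile normalization (0.0614 to 0.149). The interaction was 0.84 ± 0.34 (adjusted p = 0.247).

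Rab11a and Rab11b belong to recycling endosomes. Up to 308 exon bases of Rab11b overlap Gm17251 on the other strand. Up to 107 of Rab11a overlap the microRNA gene Gm47308 on the same strand. Rab11a had 89.1, 81.3 and 79.2 FPKM with Tm plus LPS, 78.1, 69.7 and 77.5 with Tm, 129.8, 114 and 116 with LPS and 107, 93.2 and 105 in control. All libraries with Tm lay below all without. Rab11a fell with Tm (log2 -0.43 ± 0.10, adjusted p = 0.00282) and with Tm plus LPS against LPS (log2 -0.52 ± 0.10, adjusted p = 0.000792). Rab11b averaged 21.6 ± 0.605 FPKM with Tm and 27.8 ± 2.16 in control (log2 -0.34 ± 0.12, adjusted p = 0.0378), a call that ended without control replicate 1 or 2 or any 1 Tm replicate (adjusted p 0.0778 to 0.124).

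Rab10 brings vesicles to the plasma membrane, among them those with TLR4 in macrophages. It had 89.8, 93.5 and 80.3 FPKM with Tm plus LPS, 76.0, 82.8 and 81.4 with Tm, 82.8, 88.4 and 92.3 with LPS and 66.2, 60.9 and 63.7 in control. Each treated library was above each control library. Up to 132 of its exon bases overlap the antisense RNA Rab10os. Rab10 rose with LPS (log2 0.46 ± 0.10, adjusted p = 0.00233) and with Tm (log2 0.33 ± 0.10, adjusted p = 0.0139). The LPS call ended under quantile normalization (adjusted p = 0.0658) and the Tm call without Tm replicate 2 (adjusted p = 0.0571). The related Rab8a, which also acts in exocytosis, differed by -0.03 on the log2 scale with Tm (95% interval -0.26 to 0.20), and Rab8b, Rab13 and Rab35 were called in no comparison either.

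Rab40c, which carries a SOCS box and joins a ubiquitin ligase, fell with LPS. It had 15.9, 7.65 and 16.9 FPKM with Tm plus LPS, 21.6, 21.5 and 25.2 with Tm, 9.41, 7.37 and 8.28 with LPS and 21.5, 21.7 and 20.2 in control. LPS alone lay below control without overlap, and with both agents replicate 2 lay within the range of LPS alone while the other replicates lay above it. The log2 difference was -1.25 ± 0.22 with LPS (adjusted p = 0.000501) and -0.78 ± 0.22 with Tm plus LPS against Tm (adjusted p = 0.0215). The second call ended without Tm replicate 2, Tm replicate 3 or Tm plus LPS replicate 2 (adjusted p 0.0523 to 0.0846), and with no filter or only the libraries of the contrast (0.0663 and 0.0689). Up to 103 exon bases of Rab40c overlap the antisense gene Gm16278.

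The 16 Rab genes called in none of the pairwise comparisons were Rab1, Rab2a, Rab2b, Rab3a, Rab4b, Rab5b, Rab6a, Rab8a, Rab8b, Rab13, Rab18, Rab21, Rab23, Rab28, Rab35 and Rab43. Their log2 differences ran from -0.56 to 0.74 with LPS and from -0.57 to 0.51 with Tm. They ran from -0.34 to 0.91 with Tm plus LPS against LPS and from -0.63 to 0.92 against Tm. These ranges include values as large as some that were called, so a missed threshold does not show that a gene stayed the same.

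The effect of each agent was set side by side with and without the other, in pairs of comparisons whose group means share no library. The spread of each gene was estimated from all 12 libraries, so the calls of a pair are not independent. For LPS, 7 Rab genes were called both without and with Tm, which is 63.6% of the 11 and 77.8% of the 9, and 0 were called in opposite directions. These were Rab4a, Rab7b, Rab12, Rab20, Rab32, Rab38 and Rab40c. Over all genes the shared calls were 47.1% and 55.1% of the same lists. For Tm, 11 Rab genes were called both without and with LPS, 55% of the 20 and 73.3% of the 15, again with 0 in opposite directions. These were Rab1b, Rab3d, Rab5a, Rab7b, Rab9, Rab11a, Rab14, Rab31, Rab32, Rab33b and Rab38, and over all genes the shares were 55.6% and 66.5%. Rab38, which is among the shared Rab genes for both agents, met the FPKM limit through the treated libraries.

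**Figure D4:**
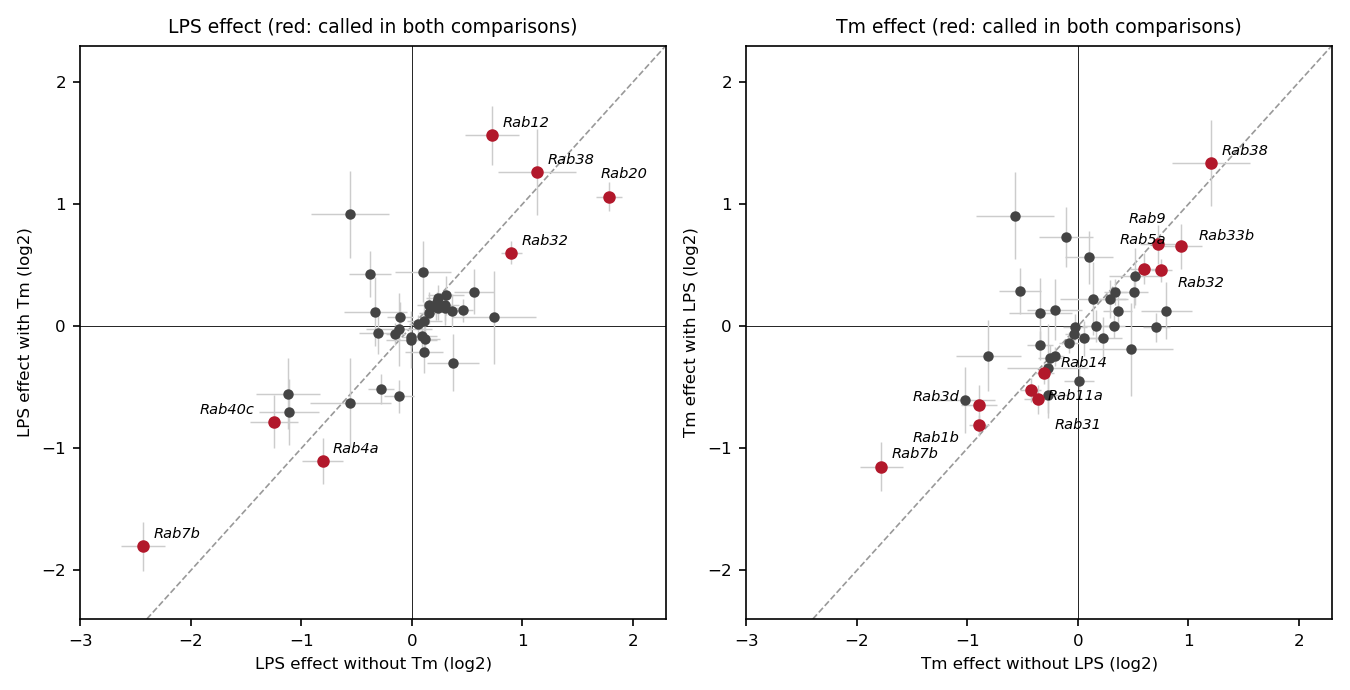
Log2 fold change (± SE) of each of the 41 Rab genes for LPS (left) and Tm (right), with the other agent present (y axis) and absent (x axis); the dashed line marks equal effects and red points were called in both comparisons. Rab20 lies below the line for LPS, at 1.06 with Tm and 1.78 without it.

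Regulators of the Rab cycle were counted from lists chosen for their known roles. Tm against control called 34.5% of all genes. It called 8 higher and 4 lower of 42 tested exchange factors (28.6%), 9 higher and 0 lower of 33 GTPase-activating proteins (27.3%), 15 higher and 4 lower of 49 effectors and tethers (38.8%), and 2 higher and 1 lower of 13 genes for prenylation and GDP dissociation inhibition (23.1%). The effectors were the one list above the share of all genes. LPS against control called 18.4% of all genes, with 4 higher and 3 lower exchange factors (16.7%), 4 higher and 2 lower GTPase-activating proteins (18.2%), 6 higher and 6 lower effectors (24.5%) and 0 genes of the prenylation list. Tm plus LPS against LPS called 28.9% of all genes. Exchange factors had 11 higher and 6 lower (40.5%), GTPase-activating proteins 4 and 1 (15.2%), effectors 13 and 1 (28.6%) and the prenylation list 2 and 1 (23.1%), so the exchange factors were the one list above the share of all genes. Tm plus LPS against Tm called 15.7% of all genes, with 4 higher and 5 lower exchange factors (21.4%), 2 and 3 GTPase-activating proteins (15.2%), 4 and 4 effectors (16.3%) and 0 of the prenylation list. No list was tested against all genes, and most shares for both directions together lay near or below those of all genes. By direction, 17.9% of all genes were higher and 16.6% lower with Tm. The values were 13.8% and 15.1% with Tm plus LPS against LPS. In these 2 comparisons the calls of effectors and GTPase-activating proteins were mostly higher, and this split was not tested.

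Trappc1, a subunit shared by the TRAPP complexes that activate Rab1 and Rab11, averaged 14.1 ± 1.64 FPKM with Tm plus LPS, 13.5 ± 1.70 with Tm, 91.5 ± 16.9 with LPS and 103 ± 9.34 in control. Tm lowered it by 7.16-fold (log2 -2.84 ± 0.15, adjusted p = 3.89e-10). Uso1, the Rab1 effector p115 that tethers vesicles to the Golgi, went the other way, with 30.8 ± 6.14, 24.6 ± 1.61, 10.4 ± 0.440 and 10.7 ± 2.16 FPKM in that order (Tm against control, log2 1.15 ± 0.17, adjusted p = 5.68e-05). Rab11fip1, which links Rab11 to recycling cargo, averaged 41.9 ± 3.25 FPKM with Tm plus LPS, 3.23 ± 0.795 with Tm, 22.4 ± 4.34 with LPS and 0.654 ± 0.174 in control, a 14.0-fold rise with LPS (adjusted p = 2.21e-10). Plekhm1, a Rab7 effector in lysosome fusion, fell 3.33-fold with LPS, to 8.85 ± 1.38 FPKM against 31.7 ± 4.24 in control (adjusted p = 2.17e-07).

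Rab3il1, an exchange factor for Rab8 and Rab3 proteins, averaged 8.98 ± 0.956 FPKM with Tm plus LPS, 14.3 ± 1.92 with Tm, 17.1 ± 1.35 with LPS and 109 ± 5.46 in control. Its interaction was 1.99 ± 0.19 on the log2 scale (adjusted p = 8.9e-06), so its fall with LPS was smaller where Tm was present. Rin2, an exchange factor for Rab5, had 12.0 ± 3.40, 3.55 ± 0.171, 20.5 ± 7.19 and 24.1 ± 1.45 FPKM in that order, and its interaction was 1.75 ± 0.32 (adjusted p = 0.00421). Rilpl2, which binds Rab proteins phosphorylated by LRRK2, had 138 ± 15.99, 119 ± 3.87, 84.8 ± 18.7 and 33.0 ± 3.21 FPKM and an interaction of -1.11 ± 0.20 (adjusted p = 0.00395).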

How the data were processed

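RNA sequencing of 12 libraries was analysed, 3 in each of 4 groups. The values are the authors' deposited FPKM, with a single value for each gene in each library. Cufflinks 2.2.1, TopHat2 2.0.13, SAMtools 0.1.19, Bowtie2 2.2.3 and the build mm10 are named per the submitters' processing notes. The annotation, strand setting and scaling between libraries are not given in the sources used here. Read depth is unknown, and only the spread between replicates shows the precision. Coordinates are those of GENCODE M21 (GRCm38, which is mm10), and promoters those of RefSeq on GRCm38.p6.

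Genes with at least 1 FPKM in at least 3 libraries were kept (10311). R 4.3.3 and limma 3.58.1 (functions lmFit and eBayes, trend on) were used to fit log2(FPKM + 1), with 1 mean per group, 5 contrasts and Benjamini-Hochberg adjustment over all genes tested. A gene was called at an adjusted p under 0.05. The method was tested on simulated data. The alternatives were 8 settings that keep every library (quantile normalization, median-of-ratios scaling, a pseudocount of 0.1, a limit of 5 FPKM, no limit, the replicate number as a block, limma without trend, and only the libraries of the contrast) and 12 fits that leave out 1 library.

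The Rab genes and the lists of regulators and markers were chosen with earlier results of these data known. Every Rab gene called may be named; values per library are given for the 16 called genes with the largest log2 fold change, for some of their paralogues (means for the others) and, chosen after their values were seen, for Rab10, Rab11a and Rab14, and up to 4 genes of each regulator list are named. Python 3.11.15 with pandas 2.3.3 and matplotlib 3.10.9 was used for descriptions and figures. Some marker genes are not reported here.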

Additional observations from a re-analysis of the deposited data

Results flagged for a closer look

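The effect of LPS on Rab20 differed between macrophages with and without Tm by -0.72 on the log2 scale (± 0.17, SE, limma adjusted p = 0.0234 for the interaction). That call was lost in 7 of 19 alternative runs, 5 of which left out 1 library. LPS raised Rab20 by log2 1.06 ± 0.12 with Tm present and by 1.78 ± 0.12 without it. The level reached was 112 ± 5.73 FPKM with Tm plus LPS and 114 ± 14.6 with LPS, while the starting level was 53.4 ± 5.14 FPKM with Tm and 32.2 ± 3.38 in control (SD, n = 3 each).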

How the results depend on the processing

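Of 56 called pairs of a Rab gene and a comparison, 32 stayed called in every alternative run that tested them. The other 24 were lost in at least 1, of which 7 were lost only without 1 library. A run in which a gene fell under the FPKM limit was not counted for that gene. Rab42 was thus counted in 16 runs, and Rab19 and Rab38 in 19. Of 1105 recomputed values, 997 kept direction and side of the threshold and 107 lost the call. The 1 that reversed was Rab7 for Tm plus LPS against LPS under quantile normalization (log2 0.012, adjusted p = 0.929); the cause was not tested. The count for LPS was 7 to 11 on leaving out 1 library, for Tm 15 to 22, for Tm plus LPS against LPS 11 to 16 and against Tm 8 to 10. The interaction count was 0 with no filter and 0 without trend, and 0 to 3 on leaving out 1 library. With the replicate number as a block the counts were 9 for LPS, 19 for Tm, 17 for Tm plus LPS against LPS, 9 against Tm and 1 for the interaction. The median-of-ratios factors were 1.01 to 1.02 over the libraries. That scaling could therefore change little, and its counts equalled the main ones. The shares of all genes called in these alternative runs are not given here. A shift in a Rab count can therefore not be told from a shift over all genes. Same-numbered libraries deviated with correlations of -0.039 to 0.095 over 18 pairs, so no strong shared deviation over all genes was seen. A weak one, or one in few genes, could be missed, so whether the numbers pair the samples remains unknown. Unknown depth limits the low genes Rab19, Rab38 and Rab42.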

Other observations

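The 18 Rab genes under the FPKM limit were Rab3b, Rab3c, Rab6b, Rab9b, Rab15, Rab17, Rab25, Rab26, Rab27a, Rab27b, Rab30, Rab33a, Rab36, Rab37, Rab39, Rab39b, Rab40b and Rab44. Rab17 and Rab44 were the 2 listed at 0 in all libraries. Rab33a and Rab37 reached 1 FPKM in 1 library each.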
